A study of Homo sapiens with 15 samples.

Results

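The highest 10-fold step in the dose series of ZJ-101, from 50 to 500 nM, is described here gene by gene and without the vehicle. The comparison takes 6 of the 15 libraries, the 3 treated with 500 nM and the 3 treated with 50 nM, chosen by dose alone, and 13561 of the 59608 genes in the deposited table, which are those whose normalized counts averaged 10 or more across the 15 libraries. ZJ-101 is a simplified analog of superstolide A, a macrolide from a marine sponge. The cells were MDA-MB-231, a triple-negative human breast cancer line, grown in 2D culture on 10 cm dishes. They received ZJ-101 at 0.5, 5, 50 or 500 nM, or DMSO as the vehicle, for 6 h, and each of the 5 groups had 3 biological replicates. All 15 samples shared this line, culture format and time, so the results describe 1 cell line at 1 time point. RNA was selected by poly-A, and each value is a normalized count, which is the number of reads on a gene divided by the size factor of its library.

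Proteins that leave the cell or sit on its surface are threaded into the endoplasmic reticulum (ER), where chaperones of the HSP70, HSP90 and HSP110 families and their co-chaperones fold them before vesicles carry them to the Golgi apparatus. Related members of the same families fold proteins in the cytosol, and these are induced by the factor HSF1 in the heat-shock response, whereas the ER members are induced by ATF6 and XBP1 in the unfolded protein response (UPR). Among the main cargo of the secretory pathway are the laminins, collagens and thrombospondins of the extracellular matrix and the integrins that hold on to them.

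The libraries carried the markers of their line. VIM, CD44, AXL, CAV1, ANXA1 and LGALS1, which mark the mesenchymal state of MDA-MB-231, lay between 7328 and 18414 normalized counts in all 15 libraries, while ESR1, the estrogen receptor, stayed at or below 4.30 and CD3E, a T cell marker, was listed at 0. The other mesenchymal markers were lower, with ZEB1 at 953 to 1352 and SNAI2 at 78.3 to 139. Of the luminal epithelial and endothelial markers, KRT19 (5414 to 7630), EPCAM (266 to 320), PECAM1 (201 to 321), CDH1 (107 to 206), GATA3 (122 to 168) and ERBB3 (83.2 to 117) were present, and PGR and FOXA1 stayed at or below 17.3 and 31.9. The recovered reads on genes numbered 12415519 to 12623863 per library at 50 nM and 13288165 to 15204938 at 500 nM, and mitochondrial genes took 1.02% to 1.83% of them. The 3 libraries of 500 nM lay together on the first principal component of all 15 libraries (17.8 to 20.5), whereas 50 nM replicate 2 stood apart from its group at 2.14, against 10.6 or more in the other 50 nM libraries, so counts are also given without it.

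The genes called in the extracellular matrix, integrin and ER-folding lists all fell, and those called in the cytosolic heat-shock list all rose. Of the 13561 genes, 91 were higher at 500 nM than at 50 nM (0.671%) and 231 were lower (1.7%) at an adjusted p under 0.05 (limma on log2(normalized count + 1), Benjamini-Hochberg adjustment over all genes tested). The changes were small, with a median log2 difference of 0.27 among the genes that rose and -0.34 among those that fell, and only 11 of the 322 genes passed an absolute log2 difference of 1. Without any threshold on p, all 3 libraries of 500 nM lay above all 3 of 50 nM for 1311 genes (9.67%) and below them for 1427 (10.5%), and all 322 called genes were among these. Leaving out 50 nM replicate 2 left 47 rises and 129 falls, and over the omission of each of the 6 libraries the rises ran from 35 to 59, so each library moved them by over 1.5 times. The falls ran from 106 to 221, with 142 without 50 nM replicate 3, 122 without 500 nM replicate 2 and 106 without 500 nM replicate 3. Testing every gene with a read in any of the 15 libraries, without a filter on low values, left 38 rises and 51 falls. A call is named as lost where its adjusted p reached 0.05 or more, and a gene that rose or fell by a bare number did so on the log2 scale. The calls named below were kept with each of the 6 libraries left out unless a library is named, and those that another setting ended are named together near the end.

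**Figure D1:**
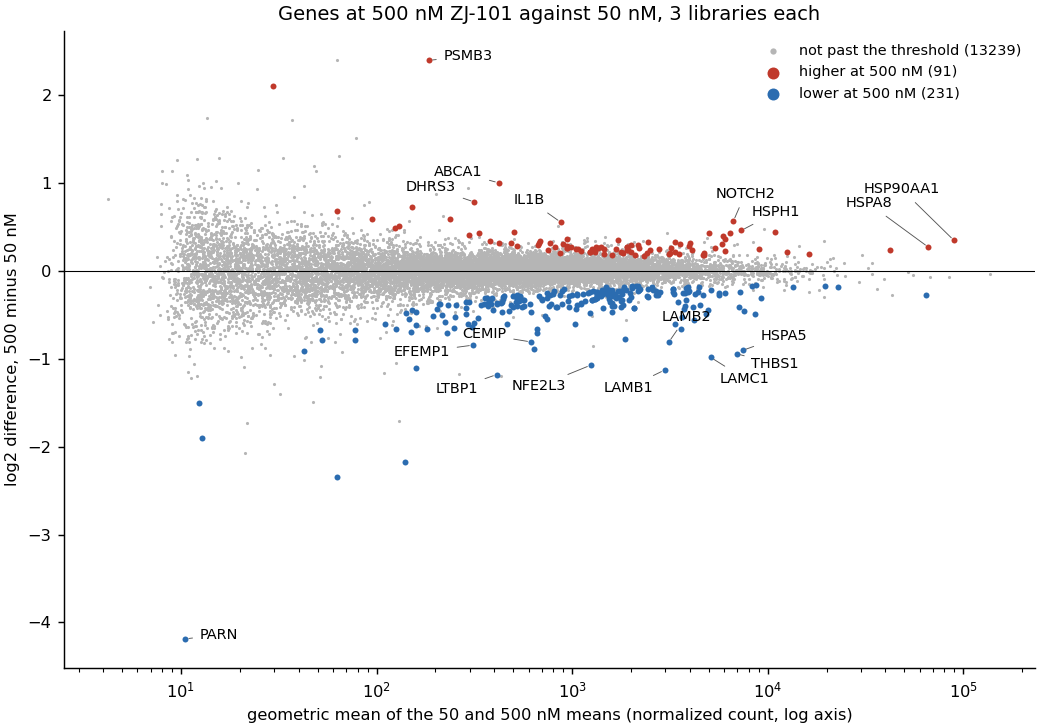
Each point is 1 of the 13561 genes, with the geometric mean of its 50 and 500 nM means on a log x axis and the log2 difference of 500 minus 50 nM on the y axis. The 91 genes that rose are red and the 231 that fell are blue, and LAMB1, LAMC1, THBS1 and HSPA5 lie at -1.13, -0.99, -0.94 and -0.91.

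Of the laminin chains, beta 1, beta 2 and gamma 1 fell. Laminins assemble from 1 alpha, 1 beta and 1 gamma chain into the trimers of the basement membrane. LAMB1, the beta 1 chain (chr7:107923799-108003213, minus strand, GENCODE release 44 on GRCh38), had 4478, 4389 and 4325 at 50 nM and 2088, 2035 and 1912 at 500 nM (normalized counts of replicates 1, 2 and 3, as in all such series below). LAMC1, the gamma 1 chain that pairs with it (chr1:183023420-183145592, plus strand), had 7351, 7112 and 7106 at 50 nM and 4030, 3324 and 3571 at 500 nM. In both genes every library of 500 nM was lower than every library of 50 nM, and the mean at 500 nM was 45.7% and 50.7% of that at 50 nM. The log2 difference was -1.13 ± 0.044 for LAMB1 (standard error, limma adjusted p = 1.58e-08) and -0.99 ± 0.058 for LAMC1 (limma adjusted p = 6.01e-07). LAMB2, the beta 2 chain, fell by 0.81 on the log2 scale from 4130 ± 55.2 to 2355 ± 148 normalized counts (mean ± SD, n = 3, limma adjusted p = 6.01e-07).

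The beta 3, alpha 3 and alpha 5 laminin chains did not pass the test. LAMB3 and LAMA3, the beta 3 and alpha 3 chains, differed by 0.035 (95% interval -0.055 to 0.13, limma adjusted p = 0.764) and 0.048 (-0.090 to 0.19, limma adjusted p = 0.792). LAMA5, the alpha 5 chain, had 12392, 11473 and 13069 at 50 nM and 12990, 12028 and 11880 at 500 nM, a log2 difference of -0.00047 with an interval of -0.11 to 0.11. The 3 chains overlapped between the doses in their library values, whereas the beta 1, beta 2 and gamma 1 chains did not. LAMA1 and LAMA4 had means of only 26.2 and 53.4 normalized counts at 50 nM and did not pass (limma adjusted p = 0.397 and 0.695).

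THBS1, thrombospondin 1, a matricellular glycoprotein (chr15:39581079-39599466, plus strand), had 9796, 9360 and 9784 at 50 nM and 5191, 5000 and 4853 at 500 nM. These groups were far apart, with a log2 difference of -0.94 ± 0.041 (limma adjusted p = 3.99e-08) and 52.0% of the 50 nM mean left at 500 nM. LTBP1, which tethers latent TGF-beta to the matrix, fell from 621 ± 81.7 to 273 ± 27.0 with a log2 difference of -1.18 ± 0.097 (limma adjusted p = 2.25e-05). EFEMP1, a fibulin, fell by 0.85 (limma adjusted p = 3.54e-05), AGRN, a heparan sulfate proteoglycan of the basement membrane, by 0.49 (limma adjusted p = 4.01e-05), and COL5A1, a fibrillar collagen chain, by 0.46 (limma adjusted p = 5.96e-05).

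In all, 50 genes of the extracellular matrix list were tested, of which 19 fell, 0 rose and 31 did not pass. That is 38.0% of the list, beside 1.7% of all genes tested, and the median log2 difference of the list was -0.22 beside 0.0031 over all genes. Without 1 library the falls numbered 12 to 20, with the 12 left without 500 nM replicate 3. Besides those above, LTBP3 and CCN2 fell by 0.36 and 0.34 and COL18A1 by 0.30, the last with 18.5% of its exon bases inside SLC19A1 on the other strand. A further 7 falls, with log2 differences from -0.47 (VWA1) to -0.24 (COL13A1), were each lost without at least 1 library. COL4A1 was lost without 500 nM replicate 3 (limma adjusted p = 0.0595) and COL13A1 without 500 nM replicate 2 or 3 (at most 0.097). COL6A1, COL8A1 and VWA1 were lost without 50 nM replicate 2 or 3 or 500 nM replicate 2 or 3, with adjusted p up to 0.14, 0.135 and 0.166. LTBP2 and TGFBI were each lost without 5 of the 6 libraries, every one but 500 nM replicate 1 and every one but 50 nM replicate 3 (up to 0.165 and 0.149). FN1, fibronectin, with 10783 normalized counts at 50 nM, differed by -0.082 (95% interval -0.23 to 0.067, limma adjusted p = 0.64), and CCN1 by -0.040 (-0.13 to 0.051, limma adjusted p = 0.724).

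**Figure D2:**
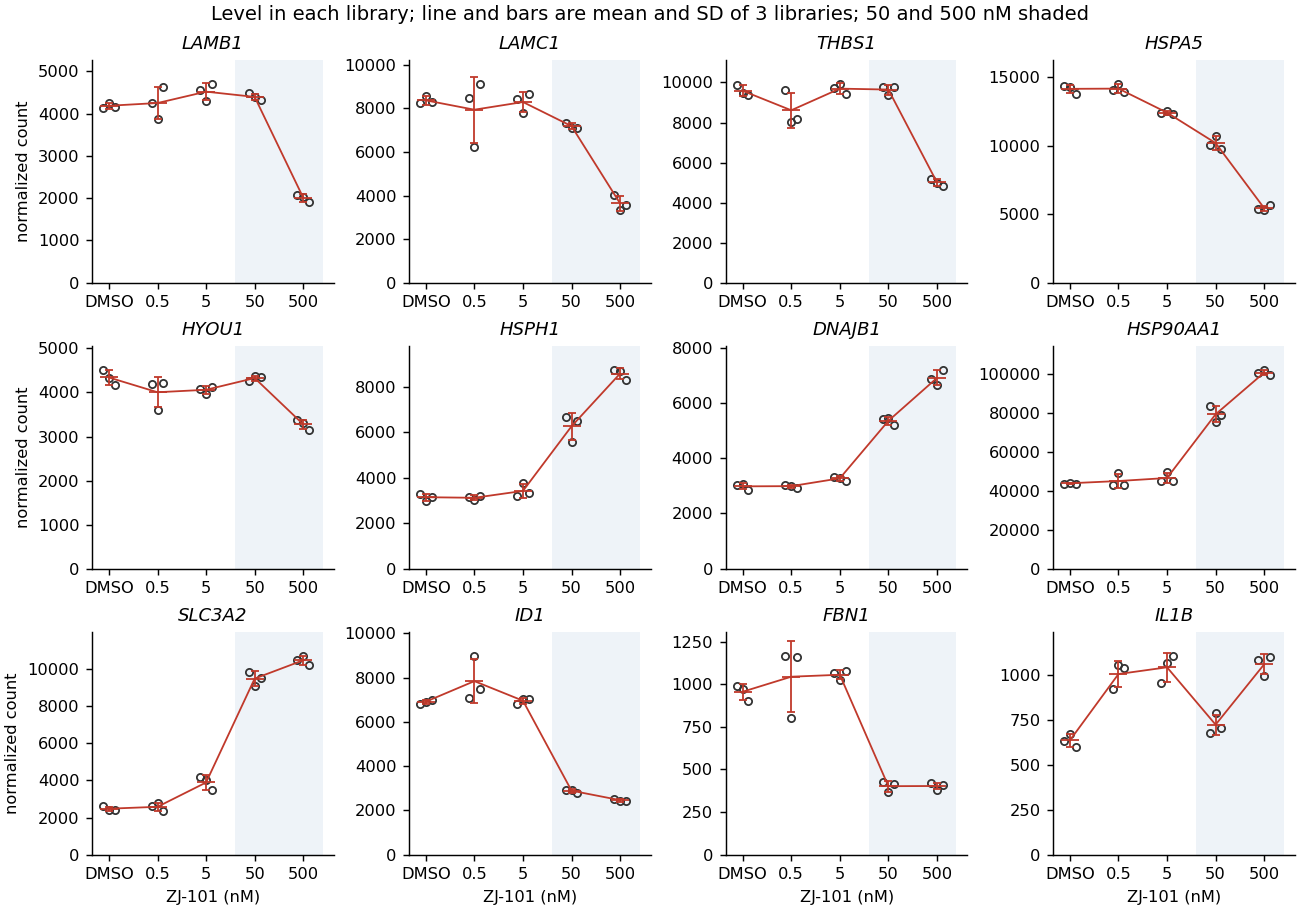
Normalized counts of 12 genes in each of the 15 libraries (open circles) over the doses, with the mean and SD of 3 libraries in red and the 50 and 500 nM groups shaded. LAMB1, LAMC1, THBS1 and HYOU1 dropped mainly between 50 and 500 nM, SLC3A2, ID1 and FBN1 had most of their change between 5 and 50 nM, and IL1B was lower at 50 nM than at 5 and 500 nM.

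Integrins, the receptors for these matrix proteins, fell in part. ITGA6, the alpha 6 integrin chain that binds laminin, had 5798, 5829 and 5694 at 50 nM and 4367, 4271 and 4056 at 500 nM. The libraries did not overlap, with a log2 difference of -0.45 ± 0.041 (limma adjusted p = 4.6e-05). ITGA5, of the fibronectin receptor, fell by 0.36 (limma adjusted p = 0.00156) and ITGA1, a collagen receptor chain, by 0.34 (limma adjusted p = 0.00228). For ITGA1, 13.2% of the exon bases lay inside the antisense gene ITGA2-AS1, and the strandedness of the counting is not given in the sources used here. ITGB5 fell by 0.29, lost without 500 nM replicate 2 or 3 (adjusted p up to 0.069), and ITGB1 fell by 0.18, lost without any 1 of the 6 libraries (up to 0.187). In the integrin list 5 of 15 tested genes fell (33.3%, beside 1.7% of all genes), 0 rose and 10 did not pass, with a median of -0.20. In it 3 falls were left without 500 nM replicate 2 or 3 and 4 or 5 without the others. ITGA3 and ITGB4, also laminin receptor chains, differed by 0.031 (-0.057 to 0.12) and -0.078 (-0.18 to 0.019), and ITGAV by -0.15 (limma adjusted p = 0.178).

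Of 26 tested cell-cell adhesion molecules, 3 fell (11.5%, beside 1.7% of all genes) and 0 rose, with a median of -0.034. ICAM1, a ligand of leukocyte integrins, had 337, 465 and 362 at 50 nM and 237, 231 and 271 at 500 nM. It fell by 0.64 on the log2 scale (limma adjusted p = 0.00801), and 25.4% of its exon bases lay inside the antisense gene ICAM4-AS1. CDH11, cadherin 11, fell by 0.32 and ALCAM by 0.22. CDH11 was lost without 50 nM replicate 2 or 500 nM replicate 2 or 3 (adjusted p up to 0.0844), and ALCAM without 50 nM replicate 1 or 3 or 500 nM replicate 2 or 3 (up to 0.0563).

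The main chaperone of the ER fell with the matrix genes. HSPA5, also known as BiP or GRP78, is the HSP70 of the ER lumen and binds newly made chains as they enter. It had 10064, 10736 and 9771 at 50 nM and 5384, 5282 and 5651 at 500 nM, so no library of 500 nM came near those of 50 nM. The log2 difference was -0.91 ± 0.046 (limma adjusted p = 1.57e-07), with 53.4% of the 50 nM mean left. HYOU1, the HSP110 of the ER and an exchange factor for HSPA5, had 4264, 4374 and 4344 at 50 nM and 3369, 3302 and 3159 at 500 nM. It fell by 0.40 (limma adjusted p = 0.000113). HSP90B1, the ER HSP90 also called GRP94, fell by 0.18 from 14307 ± 525 to 12585 ± 134 (limma adjusted p = 0.0366), a call lost without 50 nM replicate 1 or 2 or any of the 500 nM libraries (up to 0.167).

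The promoters of these 3 genes are shown because the genes are textbook targets of the UPR and fell together here. They are RefSeq sequences on GRCh38.p14, 5′ to 3′, from 250 bases before the start of transcription to 50 bases after it, in lower case. Capitals mark the ER stress element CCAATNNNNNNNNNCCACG in HSPA5 (chr9:125241294-125241593 on the minus strand) and HSP90B1 (chr12:103930160-103930459 on the plus strand, 2 matches), and the UPR element TGACGTGG in HYOU1 (chr11:119057156-119057455 on the minus strand), each searched on both strands.
HSPA5: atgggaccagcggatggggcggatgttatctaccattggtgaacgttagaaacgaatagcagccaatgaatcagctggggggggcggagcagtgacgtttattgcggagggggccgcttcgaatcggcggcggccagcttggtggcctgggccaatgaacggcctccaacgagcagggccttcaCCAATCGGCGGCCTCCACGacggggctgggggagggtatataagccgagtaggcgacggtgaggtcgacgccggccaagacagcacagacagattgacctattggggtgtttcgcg
HSP90B1: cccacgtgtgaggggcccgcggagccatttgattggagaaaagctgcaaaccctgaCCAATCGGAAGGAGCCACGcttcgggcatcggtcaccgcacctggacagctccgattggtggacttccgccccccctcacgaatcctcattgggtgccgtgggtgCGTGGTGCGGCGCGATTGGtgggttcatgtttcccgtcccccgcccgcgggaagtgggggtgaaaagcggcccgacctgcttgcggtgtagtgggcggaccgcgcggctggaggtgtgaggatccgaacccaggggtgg
HYOU1: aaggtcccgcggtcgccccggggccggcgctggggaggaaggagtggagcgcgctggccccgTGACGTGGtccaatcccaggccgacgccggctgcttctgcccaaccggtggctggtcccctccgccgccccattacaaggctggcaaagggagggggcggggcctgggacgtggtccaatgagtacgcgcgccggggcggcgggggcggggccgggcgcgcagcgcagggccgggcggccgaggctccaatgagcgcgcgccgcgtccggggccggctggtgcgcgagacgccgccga
The ER stress element stood in the promoters of 2 of the 8 ER genes that fell and have a RefSeq promoter entry. It stood in 0.0916% of all 27305 genes with an entry and in 0.16% of the tested genes with one. For the UPR element these values were 2 (HYOU1 and TXNDC5), 0.927% and 1.2%. ER chaperones are known UPR targets, so these shares are a description and no test. The matrix genes that fell held neither element in 14 entries, which says only that these letters are not in this window.

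Of 41 tested ER chaperones and folding enzymes, 9 fell, 0 rose and 32 did not pass, beside 1.7% of all genes lower, with a median of -0.096. Without 1 library 7 or 8 of them fell. CKAP4, a membrane protein that shapes ER sheets, had 4411, 4864 and 4338 at 50 nM and 3045, 2806 and 2777 at 500 nM and fell by 0.66 (limma adjusted p = 1.71e-05). FKBP9, a prolyl isomerase with the near-identical copy FKBP9P1, fell by 0.44 (limma adjusted p = 0.000313), the calcium-binding NUCB2 by 0.31 (limma adjusted p = 0.00395), the disulfide isomerase PDIA3 by 0.28 (limma adjusted p = 0.00424) and the oxidase ERO1A by 0.24 (limma adjusted p = 0.00862). TXNDC5 is uncertain, since 61.1% of its exon bases lie inside BLOC1S5-TXNDC5 and its libraries were far apart, with 337, 219 and 229 at 50 nM and 155, 47.5 and 23.8 at 500 nM. It had a log2 difference of -2.17, lost without any library but 500 nM replicate 1 (adjusted p up to 0.107).

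Chaperones that did not pass were close behind or near 0. CALR, calreticulin, differed by -0.22 (limma adjusted p = 0.0556), P4HB by -0.16 (0.0723), PDIA4 by -0.19 (0.0842) and DNAJB9, an ER co-chaperone of the HSP40 type, by -0.37 (0.0579). CANX, calnexin, differed by -0.096 with a 95% interval of -0.18 to -0.011 and DNAJB11 by 0.10 with one of -0.022 to 0.23.

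Cytosolic chaperones moved the other way. HSPH1, the HSP110 of the cytosol (chr13:31134973-31162388, minus strand), had 6672, 5590 and 6509 at 50 nM and 8734, 8693 and 8296 at 500 nM. DNAJB1, the inducible HSP40 (chr19:14514769-14560391, minus strand), had 5415, 5452 and 5192 at 50 nM and 6859, 6661 and 7196 at 500 nM. In both, each library of 500 nM was above each of 50 nM, with log2 differences of 0.46 ± 0.059 (limma adjusted p = 0.00085) and 0.37 ± 0.042 (limma adjusted p = 0.000371). HSP90AA1, the stress-inducible cytosolic HSP90, had 83750, 75658 and 78865 at 50 nM and 100688, 102246 and 99685 at 500 nM and rose by 0.35 (limma adjusted p = 0.00426), and it has the near-identical copy HSP90AA2P. HSPA4L, another HSP110 relative, rose by the same amount (limma adjusted p = 0.00387).

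HSPA8, the constitutive cytosolic HSP70, had 63856, 57772 and 59543 at 50 nM and 73465, 72786 and 71796 at 500 nM. It rose by 0.27 (limma adjusted p = 0.0178), a call lost without 50 nM replicate 3 or any 500 nM library (up to 0.0907), and 15.1% of its exon bases lie inside another annotated gene on the other strand. HSP90AB1, the constitutive HSP90 with the near-identical copy HSP90AB3P, rose by 0.23, lost without any library but 50 nM replicate 1 (up to 0.13). STIP1, which hands clients from HSP70 to HSP90, rose by 0.25, lost without 500 nM replicate 3 (limma adjusted p = 0.053).

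Of 27 tested cytosolic heat-shock genes, 12 rose, 0 fell and 15 did not pass, which is 44.4% of the list beside 0.671% of all genes. The list's median was 0.17, and 26 of the 27 members were above 0. Leaving out 1 library left 5 to 11 rises, with 5 without 50 nM replicate 3 or 500 nM replicate 2 or 3, 7 without 500 nM replicate 1 and, without 50 nM replicate 2, 9. Other rises were those of AHSA1 and FKBP4, co-chaperones of HSP90, with 0.20 and 0.19, DNAJB6 with 0.18 and CHORDC1 with 0.29. Each was lost without at least 3 of the 6 libraries. The losses for AHSA1 were without replicate 2 or 3 of either dose, and those for FKBP4 without 50 nM replicate 3 or 500 nM replicate 2 or 3. DNAJB6 was lost without any of the 6 and CHORDC1 without any but 500 nM replicate 3. Adjusted p of these 4 rose to at most 0.169 (CHORDC1). HSPA6, an HSP70 that is silent without stress in most cells, had 24.7, 16.4 and 9.57 at 50 nM and 34.7, 36.4 and 37.1 at 500 nM, with a log2 difference of 1.14 that did not pass (limma adjusted p = 0.0663) and the near-identical copy HSPA7. HSPB1 differed by 0.17 (limma adjusted p = 0.0614) and DNAJA1 by 0.15 (0.086), while HSF1 itself differed by 0.048 (95% interval -0.047 to 0.14) and BAG3 by 0.038 (-0.049 to 0.13). HSPA1A and HSPA1B, the inducible HSP70 genes, are near-identical copies with means of 0.902 and 0.209 over all libraries and were not tested.

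Promoters of HSPA8 and HSP90AA1 are shown as the cytosolic counterparts of those above, from RefSeq on GRCh38.p14 in the same window, with the heat-shock element GAANNTTCNNGAA in capitals, searched on both strands. HSPA8 lies at chr11:123062087-123062386 on the minus strand and holds 2 separate matches, 1 on each strand, and HSP90AA1 at chr14:102086995-102087294 on the minus strand holds 1, while its other annotated start holds none.
HSPA8: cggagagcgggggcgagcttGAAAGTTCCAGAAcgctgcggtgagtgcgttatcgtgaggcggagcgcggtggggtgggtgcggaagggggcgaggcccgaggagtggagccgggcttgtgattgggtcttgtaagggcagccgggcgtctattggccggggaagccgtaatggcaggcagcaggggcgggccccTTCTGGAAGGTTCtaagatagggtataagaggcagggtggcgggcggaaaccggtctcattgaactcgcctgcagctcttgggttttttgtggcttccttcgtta
HSP90AA1: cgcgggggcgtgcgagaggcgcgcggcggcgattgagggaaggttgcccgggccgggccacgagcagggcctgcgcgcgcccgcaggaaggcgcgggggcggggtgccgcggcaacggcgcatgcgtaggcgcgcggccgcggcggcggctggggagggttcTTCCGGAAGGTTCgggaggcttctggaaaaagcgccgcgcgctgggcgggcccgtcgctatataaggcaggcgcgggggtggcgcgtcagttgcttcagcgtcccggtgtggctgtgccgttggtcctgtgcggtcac
The element stood in the promoters of 5 of the 10 heat-shock genes that rose and have an entry (CHORDC1, DNAJB6, HSP90AA1, HSP90AB1 and HSPA8). It stood in 0.608% of all genes with an entry and in 0.489% of the tested genes with one. Counted by promoter, 5 of 19 held it (26.3%), beside 0.347% for the tested genes. The list was drawn up from heat-shock genes and its members that did not rise were not counted, so the share is a description and no test. It was in 0 of 8 ER genes and 0 of 14 matrix genes that fell. HSPH1 and DNAJB1 have entries without a match, which says only that these letters are not in this window.

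Within a chaperone family the compartments had opposite signs in 3 of 4 pairs of a cytosolic and an ER member. In the HSP70 family HSPA8 differed by 0.27 and HSPA5 by -0.91. For HSP90 the values were 0.35 for HSP90AA1 and -0.18 for HSP90B1, and for HSP110 0.46 for HSPH1 and -0.40 for HYOU1. In the pair of J-domain proteins DNAJB1 rose by 0.37 whereas DNAJB11 did not pass with 0.10 (limma adjusted p = 0.439). The mitochondrial relatives HSPA9 and TRAP1 differed by 0.096 (95% interval 0.0057 to 0.19) and 0.058 (-0.056 to 0.17) and did not pass, and 28.5% of the TRAP1 exon bases lie inside DNASE1. HSPD1, the mitochondrial HSP60, was the only 1 of 15 mitochondrial chaperones and proteases to pass (6.67%, beside 0.671% of all genes higher). It rose by 0.22 (limma adjusted p = 0.0444), lost without 50 nM replicate 2 or 3 or any 500 nM library (up to 0.141). None of the 8 subunits of TRiC, the cytosolic chaperonin, passed, with differences from 0.031 to 0.13. The pair differences were not tested against each other.

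**Figure D3:**
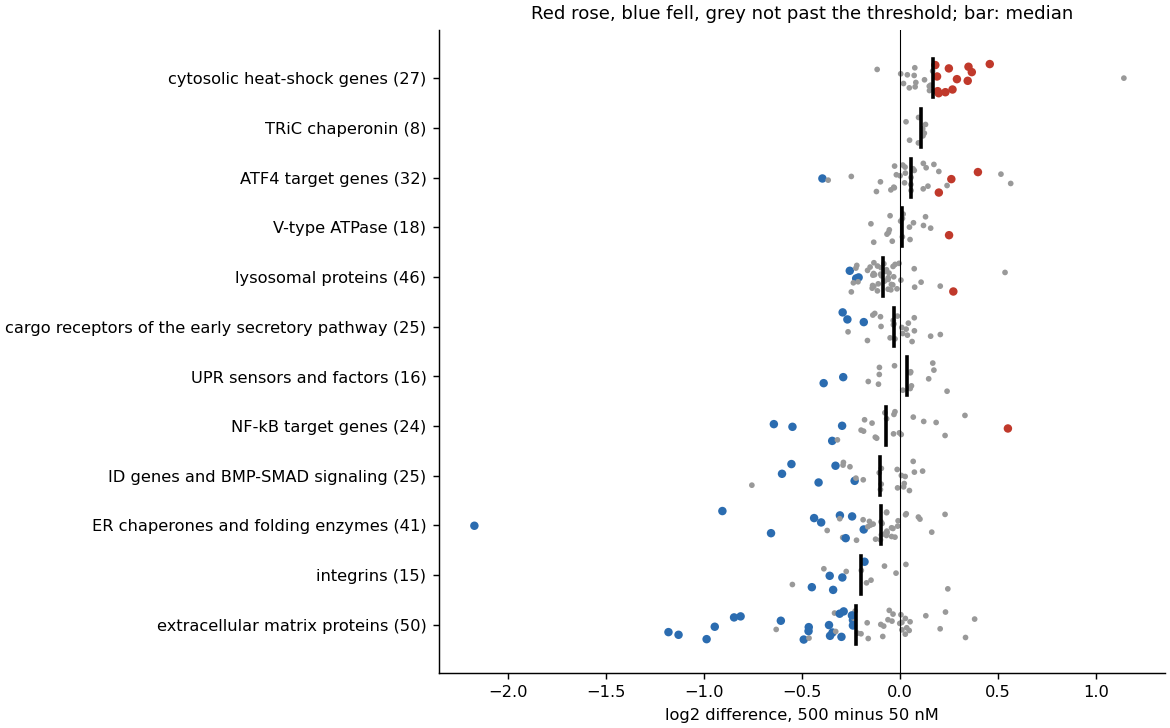
Log2 differences of 500 minus 50 nM (x axis) for the tested members of 12 lists, with the number of members in brackets, 1 point per gene and a black bar at the median. Cytosolic heat-shock genes lie to the right with 12 rises, and extracellular matrix proteins, integrins and ER chaperones lie to the left with 19, 5 and 9 falls.

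Sensors and factors of the UPR had a median of 0.034. Of 16 tested, 2 fell (12.5%, beside 1.7% of all genes) and 0 rose. XBP1, the factor spliced by IRE1, had 1181, 1321 and 1143 at 50 nM and 892, 957 and 931 at 500 nM and fell by 0.39 (limma adjusted p = 0.00308), and CREB3L1, a membrane-bound factor that drives collagen secretion, fell by 0.29, lost without 500 nM replicate 2 (limma adjusted p = 0.0554). ATF4 differed by 0.053 (95% interval -0.034 to 0.14), DDIT3 by 0.17 (-0.13 to 0.48) and ATF3 by 0.24 (-0.096 to 0.58). Among 28 tested genes of ER-associated degradation only SEL1L passed (3.57%), at -0.18, lost without any library but 500 nM replicate 1 (up to 0.201).

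Of 32 tested ATF4 target genes 3 rose and 1 fell, with a median of 0.057. These are 9.4% and 3.1% of the list, beside 0.671% and 1.7% of all genes. SLC7A5, the light chain of the amino acid transporter LAT1, had 5458, 4797 and 5165 at 50 nM and 7141, 6579 and 6588 at 500 nM and rose by 0.40 (limma adjusted p = 0.000969). Its heavy chain partner SLC3A2 had 9851, 9062 and 9539 at 50 nM and 10476, 10704 and 10228 at 500 nM and did not pass, with 0.14 (limma adjusted p = 0.116). SLC7A1 and AARS1 rose by 0.26 and 0.20, lost without 50 nM replicate 1 or 2 or 500 nM replicate 1 (up to 0.0816) and without any but 500 nM replicate 2 (up to 0.152). CEBPB, a bZIP factor with 12.6% of its exon bases inside CEBPB-AS1, fell by 0.39 (limma adjusted p = 0.0105).

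The transport machinery itself changed at a few points. Of COPII genes 6.25% fell and of cargo receptors 12%, beside 1.7% of all genes. Of translocon genes 4% rose, beside 0.671% of all genes. SEC24D, a cargo adaptor of the COPII coat that buds vesicles from the ER, had 731, 751 and 683 at 50 nM and 508, 505 and 552 at 500 nM and fell by 0.47 (limma adjusted p = 0.00105), the only 1 of 16 COPII genes to pass. None of 16 COPI and ARF genes and none of 12 oligosaccharyltransferase subunits passed, and of 25 translocon genes only TRAM2 did, at 0.22, lost without 50 nM replicate 2 or 500 nM replicate 1 or 2 (up to 0.0729). Of 25 cargo receptors 3 fell, all of the p24 family. TMED9 fell by 0.29 (limma adjusted p = 0.00455), TMED7 by 0.27, lost without 50 nM replicate 3 (0.0563), and TMED10 by 0.18, lost without any of the 6 libraries (up to 0.103). For TMED7, 20.0% of the exon bases lie inside the read-through gene TMED7-TICAM2.

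In the glycosylation lists, 7.14% of the galactosyltransferase list, 10.5% of O-glycosylation enzymes and 6.25% of N-glycan enzymes fell. Of all genes tested 1.7% fell, and these lists held no rise. B4GALNT3, which adds GalNAc to GlcNAc on N- and O-glycans, had 209.5, 238 and 233 at 50 nM and 129, 155 and 147 at 500 nM and fell by 0.66 (limma adjusted p = 0.00371). It was the only 1 of 14 tested genes in the galactosyltransferase list to pass. Since it transfers GalNAc, no gene of that list that transfers galactose passed. B4GALT1 differed by -0.044 (95% interval -0.14 to 0.053). Of 19 O-glycosylation enzymes GALNT5 and GALNT7 fell by 0.25 and 0.23, each lost without 5 of the 6 libraries, all but 50 nM replicate 1 and all but 50 nM replicate 2 (up to 0.146 and 0.152), and GALNT1 differed by -0.037 (-0.15 to 0.076). Of 16 N-glycan enzymes MAN1A1, a mannosidase of the Golgi, fell by 0.27, lost without all but 500 nM replicate 1 (up to 0.13).

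Of 18 tested V-type ATPase subunits, which acidify endosomes and lysosomes, only ATP6V0A1 passed (5.56%, beside 0.671% of all genes higher). It had 993, 931 and 1019 at 50 nM and 1215, 1179 and 1108 at 500 nM and rose by 0.25 (limma adjusted p = 0.0285), lost without replicate 1 or 2 of either dose (up to 0.0961). Of 46 lysosomal proteins 1 rose and 3 fell, with a median of -0.088 (-0.12 to -0.046 without 1 library). These are 2.17% and 6.52% of the list, beside 0.671% and 1.7% of all genes. NPC1, which exports cholesterol from the lysosome, rose by 0.27 (limma adjusted p = 0.0104). SCARB2, LAMP2 and CTSD fell by 0.21, 0.22 and 0.26. SCARB2 was lost without 500 nM replicate 2 or 3 (up to 0.0592), LAMP2 without all but 50 nM replicate 1 (up to 0.109) and CTSD without all but 50 nM replicate 3 (up to 0.144), and 48.0% of the CTSD exon bases lie inside PRADX. None of 28 sterol synthesis genes passed. ABCA1, the cholesterol efflux pump, had 264, 358 and 270.2 at 50 nM and 719, 492 and 582 at 500 nM and rose by 1.00 (limma adjusted p = 0.00104).

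Signaling genes that fell included inhibitors of differentiation and targets of NF-kB. ID3, a helix-loop-helix protein without a DNA-binding domain, had 597, 595 and 529.7 at 50 nM and 368, 391 and 374 at 500 nM and fell by 0.60 (limma adjusted p = 0.000313). ID1, its relative, fell by 0.23, lost without 500 nM replicate 2 or 3 (up to 0.0711). The inhibitory SMAD7 and SMAD6 fell by 0.55 and 0.41, lost without 50 nM replicate 1 or 3 or 500 nM replicate 3 (0.0724) and without 50 nM replicate 1 or 500 nM replicate 2 (0.0552), and TGFBR3, betaglycan, fell by 0.33 (limma adjusted p = 0.00211). These were the 5 of 25 tested ID and BMP-SMAD genes to pass, 20% beside 1.7% of all genes, with a median of -0.099.

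Of 24 tested NF-kB target genes 4 fell, ICAM1 among them, and 1 rose, 16.7% and 4.17% of the list beside 1.7% and 0.671% of all genes, with a median of -0.072 (-0.077 to -0.045 without 1 library). CXCL1, a neutrophil chemokine, had 818, 990.0 and 886 at 50 nM and 559.5, 609 and 673 at 500 nM and fell by 0.55 (limma adjusted p = 0.00211), and NFKBIA, the inhibitor of NF-kB, and BIRC3 fell by 0.29 (limma adjusted p = 0.00334) and 0.35 (limma adjusted p = 0.00371). IL1B, interleukin 1 beta, had 678, 787 and 708 at 50 nM and 1084, 998 and 1100 at 500 nM and rose by 0.55 (limma adjusted p = 0.000357). In the NRF2 target list of 24 genes 3 fell (12.5%, beside 1.7% of all genes), and 2 of these are relatives of NRF2 rather than detoxifying enzymes. NFE2L3 had 1743, 1973 and 1705 at 50 nM and 898, 823 and 849.6 at 500 nM and fell by 1.07 (limma adjusted p = 4.05e-07), with 28.1% of its exon bases inside HNRNPA2B1 on the other strand. NFE2L1, which sits in the ER membrane until it is released, fell by 0.17, lost without any of the 6 libraries (up to 0.168), and GCLM, a glutathione synthesis subunit, by 0.23, lost without all but 500 nM replicate 1 (up to 0.175).

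Surface receptors were among the rises. GPRC5A, an orphan receptor induced by retinoic acid, had 5671, 5236 and 5595 at 50 nM and 7780, 7088 and 7338 at 500 nM and rose by 0.43 (limma adjusted p = 0.000236). Its relative GPRC5B rose by 0.44 (limma adjusted p = 0.00186), with 26.7% of its exon bases inside IQCK. NOTCH2 had 5730, 4889 and 5814 at 50 nM and 9376, 7200 and 7798 at 500 nM and rose by 0.56 (limma adjusted p = 0.00293). EPHA2 differed by 0.10 (95% interval 0.012 to 0.19) and did not pass. DHRS3, a retinaldehyde reductase, had 222, 257 and 246 at 50 nM and 422, 386 and 439 at 500 nM and rose by 0.78 (limma adjusted p = 0.000157), and PDZD2 rose by 0.59 (limma adjusted p = 0.00211).

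Several housekeeping and cell cycle lists held no gene that passed, where 0.671% of all genes were higher and 1.7% lower. At these shares a list of this size can hold no call by its size alone. None of 74 cytosolic ribosomal protein genes passed (range -0.063 to 0.13, median 0.0027), and none of 35 translation factors, 35 S-phase genes, 36 G2/M-phase genes, 25 interferon-stimulated genes or 15 mitochondrial transcripts. The last list had a median of -0.21, which moved to -0.47 and -0.45 without 50 nM replicate 1 or 500 nM replicate 2 and to -0.089, -0.099 and -0.047 without 50 nM replicate 2, 50 nM replicate 3 or 500 nM replicate 1, and 1 of its genes fell without 500 nM replicate 2. The mitochondrial share of reads overlapped between the doses, at 1.15% to 1.77% per library of 50 nM and 1.02% to 1.83% per library of 500 nM. The S-phase genes had a median of 0.034, with 24 of 35 above 0 and 11 below it. For 11 of them all libraries of 500 nM lay above all of 50 nM and for 0 below, beside 9.67% and 10.5% of all genes. Of 27 apoptosis and p53 target genes only PMAIP1 passed and fell by 0.22, lost without replicate 1 or 3 of 50 nM or of 500 nM (up to 0.0712). Of 19 MYC, cyclin and CDK inhibitor genes only CDKN2D passed and fell by 0.33 (limma adjusted p = 0.0123). Of 28 immediate-early genes DUSP5, a phosphatase of ERK, fell by 0.33 (limma adjusted p = 0.00455), and JUND by 0.33, lost without all but 500 nM replicate 1 (up to 0.181). Of 21 genes of growth factor and ephrin receptor signaling GPRC5A and EREG passed, and EREG, an EGFR ligand, rose by 0.24, lost without replicate 2 of either dose (up to 0.0823). The falls were 3.7% of the apoptosis list, 5.26% of the MYC list and 7.14% of the immediate-early list, beside 1.7% of all genes. In the list of growth factor and ephrin receptor signaling 9.52% rose, beside 0.671% of all genes. These rises were GPRC5A and EREG, and neither is itself a growth factor or ephrin receptor.

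Whether a gene moved more in this step than in the preceding 10-fold step was tested directly, as the difference between 500 minus 50 nM and 50 minus 5 nM in the 9 libraries of these doses. The steps share the 50 nM libraries, so their values are given side by side only. The difference passed for 72 genes in the positive direction (0.531% of 13561) and 108 in the negative (0.796%). Without 1 library these counts ran from 29 to 87 and from 50 to 118, and they fell by over 1.5 times in the positive direction without 5 nM replicate 1 or 2 or 50 nM replicate 1 or 3, and in the negative without 5 nM replicate 1 or 2, any 50 nM library or 500 nM replicate 3. In the sentences that follow, a difference also passed without each of the 9 libraries unless a library is named.

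In a first group the last step was the more negative. LAMB1 differed by -0.039 from 5 to 50 nM and by -1.13 from 50 to 500 nM, with a difference between the steps of -1.09 ± 0.077 (limma adjusted p = 9.67e-07). THBS1 differed by -0.0069 and -0.94 (difference -0.94 ± 0.069, limma adjusted p = 1.11e-06), and LAMB2 by 0.18 and -0.81 (difference -0.99 ± 0.085, limma adjusted p = 5.86e-06). DMSO means of LAMB1, THBS1 and LAMB2 were 4189, 9585 and 3737, against 4397, 9647 and 4130 at 50 nM, and the fall from 50 to 500 nM was larger than the distance between these 2 means in each gene. LAMC1 differed by -0.21 and -0.99 (limma adjusted p of the difference = 0.000638), and HSPA5 by -0.29 and -0.91 (limma adjusted p = 0.000222). HYOU1, AGRN and TGFBR3 had preceding values of 0.092, 0.0034 and 0.23 and differences between the steps of -0.49, -0.49 and -0.56. CEMIP, a hyaluronan-binding protein, and CXCL1 were higher at 50 than at 5 nM by 0.76 and 0.36 and then fell (limma adjusted p of the difference = 3.35e-06 and 0.00136).

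In a second group the preceding step was the larger. SLC3A2 differed by 1.29 from 5 to 50 nM and by 0.14 in the last step, with a difference of -1.15 ± 0.099 (limma adjusted p = 5.86e-06). FBN1, fibrillin 1, had 427, 367 and 413 at 50 nM and 419.9, 380.3 and 409 at 500 nM, against a mean of 1056 at 5 nM, so it stood at 0.0054 (95% interval -0.16 to 0.17) after -1.39 (limma adjusted p of the difference = 3.35e-06). TNC, tenascin C, differed by -1.20 and then by -0.061 (limma adjusted p of the difference = 1.49e-05), ID1 by -1.27 and -0.23 (limma adjusted p = 6.75e-07) and NFE2L1 by -1.14 and -0.17 (limma adjusted p = 9.67e-07). IKBIP, B4GALT1 and PLAUR, the urokinase receptor, showed the same order, with -0.82, -0.62 and -0.72 before 50 nM and -0.084, -0.044 and -0.069 after it. FBN1 and TNC are matrix genes, as are LAMB1 and THBS1 of the first group.

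In part of the heat-shock list the last step was smaller than the preceding one. DNAJB1 differed by 0.71 and then 0.37 (limma adjusted p of the difference = 0.0234, lost without 50 nM replicate 1 or 2 at up to 0.0958). HSPH1 differed by 0.87 and 0.46, and the difference did not pass (limma adjusted p = 0.0834). Of the 27 genes 5 had a smaller last step past the threshold and 0 a larger one. The others were DNAJA1, HSPA8, HSP90AA1 and DNAJB4 (limma adjusted p of the difference = 0.0112, 0.0226, 0.041 and 0.0338). DNAJA1 was lost without 50 nM replicate 1 (limma adjusted p = 0.0709), and HSPA8 without replicate 1 of 5 nM, replicate 1 or 3 of 50 nM or replicate 3 of 500 nM (up to 0.103). HSP90AA1 was lost without 7 of the 9 libraries, all but 5 nM replicate 2 and 50 nM replicate 2 (up to 0.141), and DNAJB4 without 6, all but 5 nM replicate 2 and 500 nM replicates 2 and 3 (up to 0.124).

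CKAP4, ITGA6, ID3 and COL5A1 were lower after both steps, with -0.79, -0.54, -1.05 and -0.36 from 5 to 50 nM and -0.66, -0.45, -0.60 and -0.46 in the last step. Their differences between the steps did not pass (limma adjusted p = 0.584, 0.65, 0.0785 and 0.648), which does not show that the steps were equal. A last small group had opposite signs in the consecutive steps. IL1B, DHRS3 and ANGPTL4, a lipase inhibitor, had means of 1044, 329 and 221 at 5 nM, 724, 242 and 118 at 50 nM and 1061, 416 and 195 at 500 nM. The differences between their steps were 1.08 ± 0.11, 1.23 ± 0.13 and 1.64 ± 0.22 (limma adjusted p = 6.82e-05, 9.5e-05 and 0.00092). The rise of ANGPTL4 in the last step alone was lost without 500 nM replicate 2 or 3 (up to 0.0711).

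**Figure D4:**
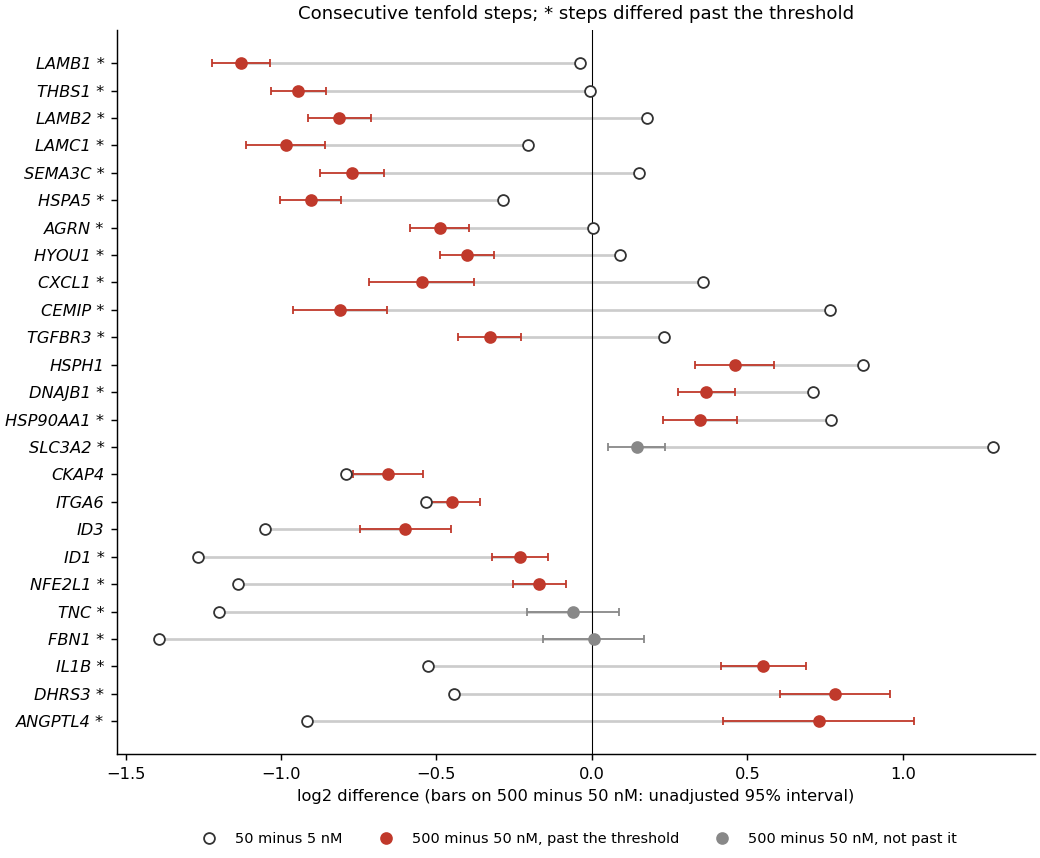
Log2 differences of 25 genes for 50 minus 5 nM (open circles) and 500 minus 50 nM (filled circles with unadjusted 95% intervals, red where past the threshold). An asterisk marks genes whose steps differed past the threshold, and LAMB1, THBS1 and LAMB2 lie near or above 0 in the first step and at -1.13, -0.94 and -0.81 in the second.

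Of the 11 genes past an absolute log2 difference of 1, 7 have reads that other sequence can share. PARN, SINHCAF, TNFRSF14, METRNL, PHRF1 and PSMB3 each have a copy on an alternate contig of the genome, and TXNDC5 overlaps a read-through gene. PSMB3, the only 1 of 44 tested proteasome subunits to pass, had 67.7, 64.4 and 94.7 at 50 nM and 734, 191 and 441 at 500 nM, and PARN, a poly-A ribonuclease, had 36.5, 50.2 and 68.1 at 50 nM and 1.02, 1.01 and 4.42 at 500 nM. The doses did not overlap in either gene, but how the counting divided reads between the copies was not tested, so these 2 log2 differences, 2.39 and -4.19, are uncertain. PHRF1, SINHCAF, TNFRSF14 and METRNL were lost without 3 to 5 of the 6 libraries, with adjusted p of up to 0.0672 without 50 nM replicate 1 or 2 or 500 nM replicate 2, up to 0.135 without 50 nM replicate 2 or 3 or 500 nM replicate 1 or 3, up to 0.12 without any but 50 nM replicate 3, and up to 0.0848 without any 50 nM library or 500 nM replicate 2. The other 4 were LAMB1, LTBP1, NFE2L3 and TMEM238, and TMEM238, which had 266, 238 and 187 at 50 nM and 149.8, 99.1 and 78.6 at 500 nM, was lost without 50 nM replicate 1 (0.054). KCNQ3, CPA4 and PDK4 had 50 nM means of 77.5, 108 and 105 and log2 differences of 0.59, 0.51 and 0.49, each lost without 5 or 6 of the 6 libraries.

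Settings other than a left-out library ended some of these calls. Fitting the 12 treated libraries together ended those of COL4A1, COL6A1, COL13A1, LTBP2, TGFBI, VWA1, ITGA1, ITGB1, CDH11, HSP90B1, CHORDC1, FKBP4, HSPD1, SEL1L, CEBPB, SLC7A1, TRAM2, GALNT5, GALNT7, NPC1, SCARB2, CTSD, ID1, NFE2L1, GCLM, JUND, PMAIP1, NOTCH2, PSMB3, PHRF1, SINHCAF, TNFRSF14, METRNL, TMEM238 and PDK4, and fitting all 15 libraries those of LTBP2, ITGB1, FKBP4, SEL1L, SLC7A1, TRAM2, GALNT5, CTSD, ID1, NFE2L1, PHRF1, SINHCAF, TNFRSF14, KCNQ3 and PDK4. DESeq2 did not call TXNDC5, LTBP2, KCNQ3, CPA4 and PDK4, edgeR did not call HSPD1, CHORDC1 and CPA4, TMM scaling ended CHORDC1, and a pseudocount of 5 ended TNFRSF14 and CPA4. Removing the trend with length and GC ended VWA1, DNAJB6, CTSD, JUND and GCLM, and the replicate block ended ITGB1 and NFE2L1. The difference between the steps was lost for LAMC1 and the 5 heat-shock genes when the 12 treated libraries were fitted together, for HSP90AA1 and DNAJB4 in the fit of all 15 libraries, and for DNAJB4 with the length and GC trend removed. Without the filter on low values, 12 of the 87 called genes that the naming rule chose stayed, which were LAMB1, LAMB2, LAMC1, THBS1, EFEMP1, COL5A1, ITGA6, HSPA5, HYOU1, FKBP9, SCARB2 and NFE2L3, and the difference between the steps was lost for LAMC1, AGRN, CXCL1, IL1B, ANGPTL4 and the same 5 heat-shock genes. Of 44 called genes chosen outside the rule, 38 were lost in that setting. Those kept were LTBP3, COL18A1, SEMA3C, CSPG4, MMP14 and MMP1.

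Genes that rose had longer transcripts. Across 12633 genes with a transcript length in GENCODE (93.2% of those tested), the Spearman correlation of the log2 difference with length was 0.18 and that with GC content 0.00061, a description across genes that share libraries. Median lengths were 5539 bases for the genes that rose, 4021 for those that fell and 3869 for all. With each library's trend on length and GC removed, 83 of the 91 rises and 202 of the 231 falls were still called. The part of RNA quality or library preparation in this trend was not tested.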

How the data were processed

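Poly-A RNA of 15 MDA-MB-231 cultures was sequenced as paired reads of 150 bases. The deposited signal values are normalized counts, for which the authors used HISAT2 (alignment, hg38), htseq-count (reads per gene) and the size factors of DESeq2. Tool versions, annotation release and strandedness are not given in the sources used here. Every value was a whole number of reads times 1 step per library (100% within 0.001), from which reads per library were recovered for the count tests.

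Log2(normalized count + 1) was tested with limma 3.58.1 (two-sided, with a mean-variance trend) in R 4.3.3 on the 6 libraries, and on the 9 libraries of 5, 50 and 500 nM for the difference between the steps. P-values were adjusted by Benjamini-Hochberg over 13561 genes (threshold 0.05). The test of the step had 4 residual degrees of freedom per gene, and 13.2 with the variance that limma borrows across genes. Log2 differences carry standard errors, 95% intervals are unadjusted, and p-values measure the spread between these cultures. In simulated data of these libraries (13561 genes) the test of the step recovered 63 of 100 genes changed by 0.5 and 87 of 100 changed by 1 on the log2 scale, with 7 false calls, and that of the difference 43 and 76, with 9.

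Genes named were the 15 largest rises and falls without overlap, up to 4 called genes per direction in each of 38 lists, cytosolic and organelle chaperone pairs, the genes the study names for the transcriptome, and the 5 smallest p-values per direction for the difference. A few genes that this names are not reported here. Other names were chosen after their values were seen, and the comparison, lists and rule were chosen with earlier results of these data known. Alternatives were pseudocounts of 0.5 and 5, other filters, TMM and equal totals, edgeR 4.0.16 and DESeq2 1.42.0 on recovered reads, fits of 12 or 15 libraries, a replicate block, a trend on length and GC, and each library left out. Copies were found with minimap2 2.31-r1302 and bedtools 2.31.1 on GENCODE release 44.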

Additional observations from a re-analysis of the deposited data

How the results depend on the processing

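Against 91 rises and 231 falls, no filter on low values gave 38 and 51, of which 5 and 29 were among them. That setting tested every gene with a read in any of the 15 libraries. An adjusted p under 0.1 gave 182 and 368, an absolute log2 difference of 1 gave 2 and 9, and the 12 treated libraries in 1 fit gave 43 rises and 159 falls. Without 1 library the counts ran from 35 to 59 and from 106 to 221. For the difference between the steps (72 more positive and 108 more negative), no filter gave 32 and 28, an adjusted p under 0.1 gave 188 and 218, an absolute log2 difference of 1 gave 12 and 9, all 15 libraries gave 34 and 56, the 12 treated libraries 17 and 21, and DESeq2 111 more positive. Without 1 library these counts ran from 29 to 87 and from 50 to 118. The cause was not tested for the settings other than thresholds and fewer libraries.

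The replicate block gave 200 rises and 293 falls and 131 and 115 differences between the steps. Same-numbered libraries of 50 and 500 nM had correlations of their deviations of 0.020, -0.021 and -0.035 over all 13561 genes. Libraries of different numbers had -0.033 to 0.056, so no pairing by number was seen across all genes together. Whether the numbers pair the libraries in part of the genes was not tested. Pseudocounts, a mean of at least 50, TMM scaling, equal totals, edgeR and the removal of the length and GC trend kept the counts of rises and falls within 1.5 times, and no alternative reversed the direction of a call named here. FBN1 and GALNT1, which did not pass, changed sign over the left-out libraries (-0.059 to 0.050 and -0.073 to 0.00014). Of the 87 called genes the naming rule chose, 44 passed with each of the 6 libraries left out and 11 under each of 18 alternatives. With 3 cultures per dose, changes of 0.5 on the log2 scale are found only in part.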

Other observations

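Of the genes in none of the lists, 8 that fell encode enzymes that build the extracellular matrix or cut matrix and surface proteins. They and those that follow were chosen after their values were seen, so they are given as a description, and other enzymes of this kind were not counted. P4HB, a collagen prolyl hydroxylase subunit in the ER list, did not pass. PLOD2, a lysyl hydroxylase of collagen in the ER, had 4914, 5376 and 4998 at 50 nM and 3346, 3681 and 3308 at 500 nM, with a log2 difference of -0.57 ± 0.051 (limma adjusted p = 4.01e-05). LOX, the lysyl oxidase that crosslinks collagen and elastin, had 1102, 1434 and 1296 at 50 nM and 823, 808 and 866 at 500 nM and a difference of -0.61 (limma adjusted p = 0.000811), and COLGALT1, which adds galactose to collagen, had -0.27. In none of the 3 genes did the doses overlap, and from 5 to 50 nM they had differed by -0.012, 0.015 and 0.039. The proteases are the other 5. ADAMTS1 had 924, 768 and 848 at 50 nM and 544, 513 and 497 at 500 nM and a difference of -0.70 (limma adjusted p = 0.000106), and the membrane-bound MMP14 and the collagenase MMP1 had -0.39 and -0.37 after -0.79 and -0.60 in the preceding step. The sheddases ADAM8 and ADAM10 differed by -0.26 and -0.34. All 8 calls were kept without each of the 6 libraries. Without the filter on low values those of MMP14 and MMP1 stayed and the others were lost.

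Some secreted and surface signaling proteins outside the lists fell, whereas the surface proteins NOTCH2 and GPRC5B rose. SEMA3C, a secreted semaphorin, had 2398, 2516 and 2397 at 50 nM and 1431, 1493 and 1359 at 500 nM, a log2 difference of -0.77 ± 0.047 (limma adjusted p = 7.34e-07) that followed 0.15 in the preceding step, and the steps differed (limma adjusted p = 8.65e-06). Its receptor subunit NRP1, neuropilin 1, had -0.28 (limma adjusted p = 0.00279). CSPG4, the NG2 proteoglycan, and DAG1, dystroglycan, a laminin receptor that is no integrin, had -0.67 (limma adjusted p = 2.69e-05) and -0.52 (limma adjusted p = 0.000158). DAG1 had 3993, 4751 and 4374 at 50 nM and 3090, 2985 and 3028 at 500 nM, which did not overlap. The Wnt co-receptor LRP5 differed by -0.46, and the growth factors CSF1, PGF and PDGFC by -0.49, -0.41 and -0.26. PTGES, a prostaglandin E synthase, rose by 0.28 and the transglutaminase TGM2 by 0.26. The calls from SEMA3C to TGM2 were kept without each of the 6 libraries and in both larger fits. Without the filter on low values only those of SEMA3C and CSPG4 stayed. RAC1 fell by 0.25 and was lost without that filter and when the 12 treated libraries were fitted together.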
